A study of Mus musculus with 32 samples.

Results

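The comparison was between a primary aortic smooth muscle cell line of genotype Oct4 -/- (KO) and one of wild type (WT), both given vehicle at normoxia. Its members are the 3 libraries labelled KO and the 3 labelled WT for that treatment and oxygen level, so 6 of the 32 libraries of the series. Both lines are of strain C57BL/6. The other libraries are 18 of the same 2 lines, given the oxidized phospholipid POVPC in normoxia, vehicle in hypoxia (1% oxygen) or POVPC in hypoxia, and 8 of atherosclerotic lesions from KO and WT mice fed a Western diet for 18 weeks. The design names 1 line for each genotype, so genotype and line cannot be told apart, and a difference named KO against WT is also a difference between these 2 cultures. The labels do not say how the gene was deleted, or whether the triplicates were wells, passages or days of a line. The p-values therefore measure only the spread between these libraries.

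Oct4, encoded by Pou5f1, is a POU-domain transcription factor known for maintaining pluripotency in early embryonic cells, where it binds an octamer sequence in DNA. Smooth muscle cells of the aortic wall contract through an actin and myosin apparatus and lay down elastin and collagen. In culture they lose much of the contractile program and take on a proliferating, matrix-producing state. The comparison asks how the lines differ before any oxidized lipid or low oxygen is applied, which is the baseline for the study's other comparisons of these cells.

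Levels are given in CPM, the reads counted for a gene scaled to a common library size. A change is the log2 of KO over WT with its standard error (±), and a gene is described as higher or lower in KO only where edgeR's quasi-likelihood test gave a false discovery rate (FDR, Benjamini-Hochberg) under 0.05. Where the values of all 6 libraries are given for such a gene, the KO and WT values do not overlap unless overlap is stated. Of all tested genes, 65.8% had no overlap, so non-overlap alone does not set a named gene apart. The 6 libraries held 19754346 to 28346752 counts over genes, and 3 counts correspond to 0.0954 to 0.154 CPM. KO library 3 stood apart from the rest. The ribosomal precursor Rn45s took 8.02% of its counts and 1.29 to 1.60% of the others', and the RNase P RNA Rpph1 took 1.15% against 3.39 to 6.91%. Lars2 was at 180.0, 77.1 and 24751 CPM in KO libraries 1, 2 and 3 and at 129, 487 and 253 CPM in WT. The calls of Rn45s (FDR 0.046) and Lars2 (FDR 0.0343) as higher in KO came with overlapping libraries and are not counted as findings.

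Pou5f1 (mm9 chr17:35642977-35647722) had 0 counts in each KO library and 1, 0 and 0 in the WT libraries, which is too few to be tested or to check the genotype labels. The smooth muscle markers Acta2, Myh11, Tagln and Cnn1 were lower in KO, and the last 3 stayed under 10 CPM in both lines, while Smtn and Myl9 were higher. These 6 genes are outside the naming rule, were chosen with their values seen and are given to describe the cell type. With Myh11, Tagln, Cnn1 and Myl9 under 10 CPM in every library, they do not settle it. The name smooth muscle is taken from the labels. Acta2, smooth muscle alpha-actin, was at 56, 56.5 and 62.4 CPM in KO and 233, 280.4 and 275 CPM in WT. The myosin heavy chain Myh11 was at 0.513, 0.175 and 0.0398 CPM in KO and 5.58, 5.06 and 4.81 CPM in WT. Tagln (transgelin) was at 3.95, 3.59 and 5.22 CPM in KO and 8.42, 8.81 and 9.94 CPM in WT, and the calponin gene Cnn1 stayed under 2 CPM in every library. Smtn (smoothelin) was at 64.3, 88.4 and 112 CPM in KO and 34.6, 36.3 and 37.9 CPM in WT, and the regulatory myosin light chain Myl9 at 6.05, 5.70 and 6.77 CPM in KO and 1.15, 1.65 and 1.23 CPM in WT. Of 8 marker lists of other cells an aortic culture could hold, the macrophage, endothelial and striated muscle lists had small sums. The neural list summed to 124 to 142 CPM in KO and 159 to 164 CPM in WT, the chondrocyte and osteoblast list to 101 to 133 CPM in KO and 147 to 154 CPM in WT, and the pericyte list to 295 to 473 CPM in KO and 573 to 631 CPM in WT. The adventitial and the epithelial lists are described with the fibroblast markers. Of the 14 listed macrophage and leukocyte genes 6 were tested and 1, Cd14, was lower in KO (16.7% called, against 60.6% of all genes). Cd68, Csf1r, Lyz2, Cd79a and Fcer1g did not pass. The sum of that list was 16.3 to 19.1 CPM in KO and 30.2 to 33 CPM in WT, most of it Cd14, and its members Emr1, Itgam, C1qb and Cd3e had no count. The 14 endothelial genes summed to 10.4 to 13 CPM in KO and 4.81 to 5.95 CPM in WT, with 3 higher and 1 lower of 7 tested (0 lower without KO library 1 or 2 or WT library 2 or 3), and with Tie1 and Cldn5 at no count. Of the 7, Sox18, Flt1, Vwf and Kdr passed (57.1%), and Pecam1, Esam and Tek did not. Of 4 skeletal and cardiac muscle genes tested 0 were called, and 5 others, Myod1 among them, had no count.

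The lines differed in most measured genes. Of 14496 genes tested, 8778 passed (60.6%), 4313 higher (29.8%) and 4465 lower (30.8%) in KO, and 3143 (21.7%) passed with a change of at least 2-fold, 1411 higher (9.73%) and 1732 lower (11.9%). The 3 KO and 3 WT libraries did not overlap in 9541 genes (65.8%). Most calls were small: 2902 of the higher and 2733 of the lower genes changed by less than 2-fold. A change of at least 16-fold was seen in 413 genes. The extremes were absences: 76 genes called higher had no count in any WT library, and 44 called lower had none in any KO library. Without KO library 3, 8534 genes passed and 3172 of them by at least 2-fold. Scaling by library size alone gave 37.0% of the calls as higher, against 49.1% with the scaling used here (trimmed mean of M-values, TMM), and moved the median change of all genes from -0.017 to -0.16.

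The 2-fold genes made up a sizeable share of the RNA. Those higher in KO took 15.1, 15.5 and 23.8% of counts in KO libraries 1, 2 and 3, the last with Rn45s and Lars2 among them, and 5.69 to 5.78% in WT. Those lower in KO took 2.64 to 2.95% of counts in KO and 10.1 to 10.4% in WT.

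The 4 genes that mark the lines separated them completely. Nkx2-3 (chr19:43686815-43690382, mm9), a homeobox transcription factor, was at 38.3, 40.1 and 42 CPM in the KO libraries and had no count in any WT library, so it was at least 1167-fold higher in KO against a floor of 3 counts over the WT group. Calcrl (chr2:84170783-84265423), the receptor subunit that joins a RAMP partner to bind adrenomedullin or CGRP, was at 215, 197 and 206 CPM in KO and 0.504, 0.445 and 0.145 CPM in WT, a change of 9.11 ± 0.21 (FDR 2.66e-21). Thbd (chr2:148230207-148233924) encodes thrombomodulin, the thrombin cofactor that turns clotting towards protein C activation. It was at 1.44, 1.62 and 1.67 CPM in KO and 967, 1003 and 991 CPM in WT, a change of -9.28 ± 0.15 (FDR 2.54e-27). Mmp3 (chr9:7445822-7455974), the matrix protease stromelysin-1, was at 13.4, 10.6 and 11 CPM in KO and 2645, 2412 and 2490.1 CPM in WT, a change of -7.76 ± 0.22 (FDR 1.14e-16). Within a line the 3 libraries of each of these genes lay close together, apart from Calcrl in WT, which rested on few counts. The genes were named as markers with these data known, so their size is a description. The plot of leading genes shows these and 12 further genes library by library.

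**Figure D1:**
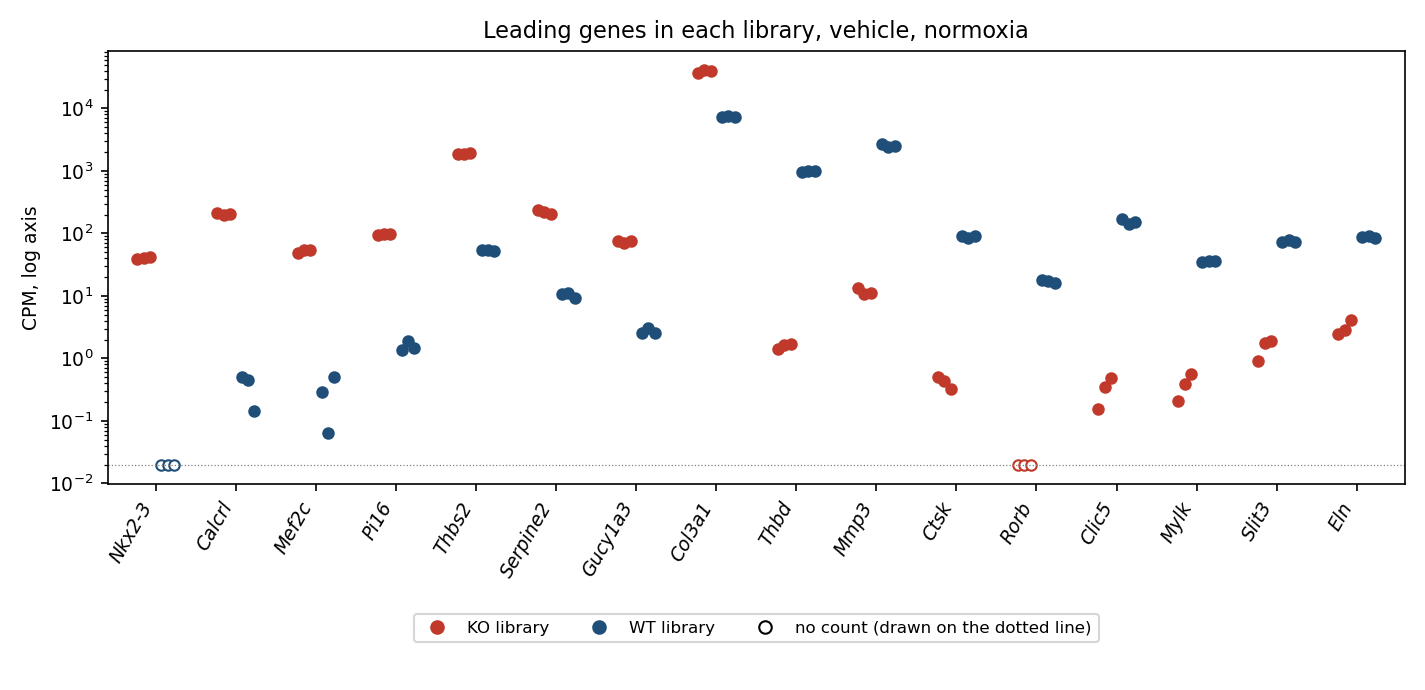
CPM on a log axis for 16 genes (x axis) in the 3 KO and the 3 WT libraries under vehicle and normoxia; each point is 1 library, and an open point on the dotted line is a library with no count. KO and WT points do not overlap for any of the 16 genes, and 65.8% of all tested genes had no overlap.

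Mmp3 lies in a cluster of matrix metalloproteinase genes on chromosome 9, and the stromelysin-2 gene Mmp10 and the collagenase-3 gene Mmp13 of that cluster were lower in KO with it. Mmp10 was at 0, 0 and 0.0398 CPM in KO and 5.47, 5.21 and 4.08 CPM in WT (-7.93 ± 0.51, FDR 7.04e-14). Mmp13 was at 0.871, 1.67 and 1.59 CPM in KO and 13.4, 11.8 and 14.6 CPM in WT (-3.24 ± 0.20, FDR 3.81e-14). Mmp27, a neighbour outside the lists and named after its value was seen, did not pass, at 0.461, 0.394 and 0.398 CPM in KO and 0.180, 0.636 and 0.145 CPM in WT (FDR 0.629). The 250 bases before the RefSeq start of each of the 3 lower genes are shown (GRCm38.p6, plus strand). They are chr9:7445572-7445821 for Mmp3, chr9:7502092-7502341 for Mmp10 and chr9:7272264-7272513 for Mmp13. An AP-1 site (TGANTCA) and a TATA box (TATAAA) occur in each and are in capitals:
Mmp3: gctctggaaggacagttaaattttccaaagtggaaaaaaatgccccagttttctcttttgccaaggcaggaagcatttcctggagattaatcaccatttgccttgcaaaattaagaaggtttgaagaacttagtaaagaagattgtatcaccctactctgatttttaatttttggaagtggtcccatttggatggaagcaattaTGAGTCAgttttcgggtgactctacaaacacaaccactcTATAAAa
Mmp10: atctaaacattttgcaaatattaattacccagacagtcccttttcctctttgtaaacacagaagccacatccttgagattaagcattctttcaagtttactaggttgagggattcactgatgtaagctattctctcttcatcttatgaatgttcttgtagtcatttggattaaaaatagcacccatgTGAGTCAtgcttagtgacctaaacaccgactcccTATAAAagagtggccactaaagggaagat
Mmp13: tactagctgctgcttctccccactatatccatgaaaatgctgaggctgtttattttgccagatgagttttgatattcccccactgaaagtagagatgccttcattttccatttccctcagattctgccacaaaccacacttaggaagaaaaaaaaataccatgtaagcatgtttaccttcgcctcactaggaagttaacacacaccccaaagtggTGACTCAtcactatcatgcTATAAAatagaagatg
The AP-1 sequence begins 46, 63 and 35 bases before the annotated start of Mmp3, Mmp10 and Mmp13. It reads TGAGTCA in Mmp3 and Mmp10 and TGACTCA in Mmp13. Each of the 3 sequences also holds the E-box CANNTG, which is not marked. Whether any of these sites bears on the lower levels was not tested.

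The same search was run over every tested gene with a promoter in the RefSeq table (11264 of 14496; 250 bases before to 50 after the start; both strands; the CArG box can hold the TATA box, and no other motif holds another). A gene counted if any of its RefSeq promoters held the sequence, so a gene with more annotated starts could count more easily. The AP-1 sequence TGANTCA was found for 6.50% of these genes. It was found for 8.74% of the 1293 at least 2-fold lower in KO and for 7.73% of the 1022 at least 2-fold higher. The octamer ATGCAAAT, the sequence Oct4 binds, was in 1.62% of all, 2.40% of the lower and 2.54% of the higher set. The TATA box was in 9.31, 11.1 and 13.9%, the E-box CANNTG in 67.8, 72.9 and 69.9%, the GC box GGGCGG in 66.7, 61.0 and 62.9%, and the CArG box that serum response factor binds in 1.66, 1.86 and 2.54%, in the same order. Each of the 5 sequences other than the GC box was thus somewhat more frequent in both directions than over all genes with a promoter, and no share was tested. Among the higher genes with the octamer was Col3a1, which encodes the chain of the fibrillar collagen III. It was at 36990.0, 40451 and 39099 CPM in KO and 7341, 7544 and 7228 CPM in WT (2.40 ± 0.18, FDR 7.58e-10), and every KO library was above every WT library. The 250 bases before its start (chr1:45311288-45311537, GRCm38.p6, plus strand) hold the octamer, in capitals, 148 bases upstream:
Col3a1: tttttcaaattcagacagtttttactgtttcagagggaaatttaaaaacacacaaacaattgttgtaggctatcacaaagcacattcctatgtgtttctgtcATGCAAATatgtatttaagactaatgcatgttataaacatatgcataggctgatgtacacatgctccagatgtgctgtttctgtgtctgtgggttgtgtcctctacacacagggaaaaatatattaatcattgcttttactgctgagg

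Genes that mark position along the body axis differed between the lines by paralogue number. Hox genes lie in 4 clusters, in which low paralogue numbers are used anteriorly and high numbers posteriorly. Of 39 listed, 25 were tested and 24 passed (96%, against 60.6% of all genes), 17 higher and 7 lower in KO. Of the 25, 19 changed by at least 2-fold (76%, against 21.7% of all genes). In the HOXA cluster, Hoxa2, Hoxa3 and Hoxa4 were lower in KO and Hoxa5, Hoxa6, Hoxa7, Hoxa9, Hoxa10 and Hoxa11 were higher. Without KO library 1, Hoxa4 did not pass (-0.75 ± 0.35, FDR 0.0709). Hoxa7 was at 18.2, 17.7 and 20.4 CPM in KO and 1.12, 0.858 and 0.867 CPM in WT (4.30 ± 0.16), and Hoxa10 at 27.6, 27.6 and 25.8 CPM in KO and 10.1, 9.13 and 10.1 CPM in WT (1.47 ± 0.11). The HOXB cluster changed sign at the same place: Hoxb3 (-0.54 ± 0.10) and Hoxb4 (-1.09 ± 0.11) were lower, and Hoxb5, Hoxb6, Hoxb7, Hoxb8 and Hoxb9 were higher. Hoxb4 was at 14.1, 13.1 and 17.8 CPM in KO and 30.3, 36.1 and 29.9 CPM in WT, and Hoxb6 at 21.7, 28.1 and 28.9 CPM in KO and 0.396, 0.699 and 0.253 CPM in WT (5.82 ± 0.25). Hoxb7, Hoxb8 and Hoxb9 had no WT count and were at 9.89, 8.06 and 8.92, at 6.05, 9.16 and 11 and at 13.6, 12.9 and 13.5 CPM in KO. Hoxb2 was the tested Hox gene that did not pass (-0.03 ± 0.10, FDR 0.782), with 23.4, 23 and 23 CPM in KO and 23.8, 24.9 and 22.3 CPM in WT. Hoxc4, Hoxc5, Hoxc6, Hoxc8 and Hoxc9 were at 0.482 to 1.83 CPM in KO libraries and had no count in WT, as did Hoxd8. Hoxc13 was the reverse, at 0.360 to 0.636 CPM in WT with no count in KO. The list's median change was 4.30, or 3.99 with the 11 genes absent from a line at their bound against 3 counts, and the median of all tested genes was -0.017.

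**Figure D2:**
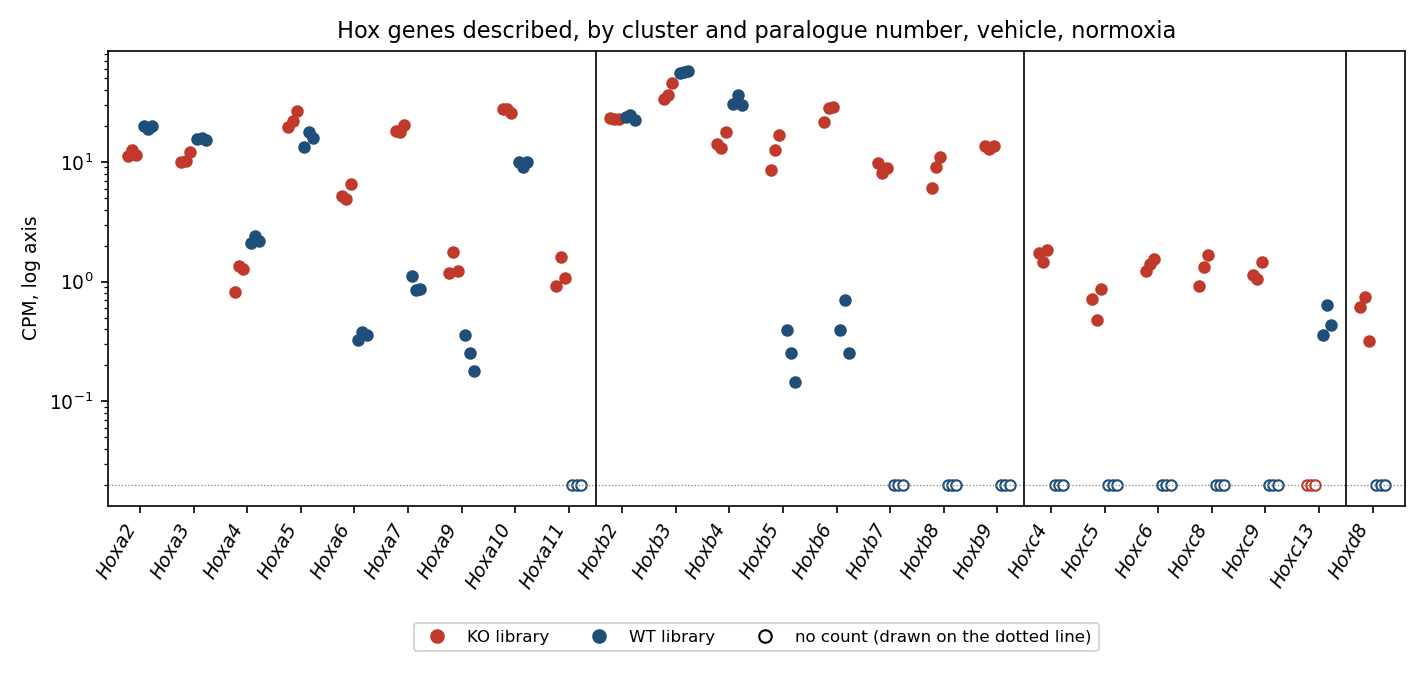
CPM on a log axis of 24 of the 25 tested Hox genes (x axis, by cluster and paralogue number, with vertical lines between clusters) in the 3 KO and 3 WT libraries; open points on the dotted line are libraries with no count. Among the HOXA and HOXB genes drawn, WT is above KO up to paralogue 4, apart from Hoxb2, where they overlap, and below it from paralogue 5 on.

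Outside the Hox clusters, 38 of 47 tested developmental transcription factors passed (80.9%, against 60.6% of all genes). In KO 25 were higher and 13 lower (median of the list 0.61), 11 and 9 of them by at least 2-fold. Rorb, an orphan nuclear receptor, was the reverse of Nkx2-3, with no count in KO and 17.9, 17.2 and 16.2 CPM in WT, at least 385-fold lower in KO. Foxd1, a forkhead factor of kidney stroma, was at 42, 45.6 and 44.4 CPM in KO and 6.80, 7.22 and 6.61 CPM in WT (2.68 ± 0.10). Prrx1, a homeobox factor of mesenchyme, was lower, at 487, 514 and 556 CPM in KO and 998, 994 and 962 CPM in WT (-0.92 ± 0.072). The libraries of the lines did not overlap for any of these. Gata2 (2.26 ± 0.20), Eya2 (2.43 ± 0.22), Dlx1 (3.03 ± 0.35), Dlx2 (2.43 ± 0.24), Lhx9 (2.42 ± 0.30) and Irx1 (2.82 ± 0.74) were higher, each under 10 CPM. The cardiovascular factors Gata6 (0.68 ± 0.074), Tbx18 (0.99 ± 0.078) and Foxc1 (0.32 ± 0.082) were higher by less than 2-fold, and Foxc1 did not pass when scaled by library size alone (0.18 ± 0.10, FDR 0.122). Sox11 (-4.05 ± 0.45), Tbx3 (-4.75 ± 0.71), Msx1 (-2.58 ± 0.36), Pax9 (-1.55 ± 0.30) and Gata3 (-1.47 ± 0.33) were lower. Gata4, Irx3 and Shox2 were among the 9 that did not pass.

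Contractile genes fell more often than they rose at this baseline. Of 31 tested, 18 were lower and 8 higher in KO (median -0.80), 14 and 4 by at least 2-fold. That is 83.9% called, against 60.6% of all genes, and 58.1% by at least 2-fold, against 21.7%. Mylk, the myosin light chain kinase that starts contraction, was at 0.205, 0.394 and 0.558 CPM in KO and 35.1, 36.4 and 35.5 CPM in WT (-6.46 ± 0.30, FDR 9.14e-17). Cald1, the actin-binding caldesmon, was at 158, 169 and 189 CPM in KO and 1097, 1108 and 1087 CPM in WT (-2.67 ± 0.12). The LIM protein Fhl1 was at 419, 386 and 399 CPM in KO and 1769.8, 1644 and 1716 CPM in WT (-2.09 ± 0.078). These 3 genes were separated between the lines without overlap, and Lmod1, a leiomodin (-3.49 ± 0.18), Sorbs2 (-2.74 ± 0.12), Acta2 (-2.17 ± 0.19), Cnn2 (-1.34 ± 0.091), Ppp1r12b (-1.16 ± 0.10) and Actn1 (-1.08 ± 0.082) were lower as well. The 4 genes at least 2-fold higher were the cysteine-rich LIM proteins Csrp2 and Csrp1, Myl9 (2.19 ± 0.26) and Smtn (1.28 ± 0.14). Csrp2 was at 265, 239 and 194 CPM in KO and 28, 29 and 28.8 CPM in WT (3.02 ± 0.11), and Csrp1 at 514, 487 and 449.6 CPM in KO and 167, 184 and 189 CPM in WT (1.43 ± 0.10). With scaling by library size alone, 4 contractile genes in place of 8 were higher and the same number, 18, lower.

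Among 29 tested regulators of contractile genes, 15 were lower and 6 higher in KO (median -0.33), 72.4% called against 60.6% of all genes. Mef2c, a MADS-box factor of muscle and of vascular development, was at 48.4, 53.3 and 53.4 CPM in KO and 0.288, 0.0636 and 0.506 CPM in WT (7.52 ± 0.30, FDR 1.90e-16). Klf4, which represses contractile genes and is itself a reprogramming factor, was at 185, 221 and 243 CPM in KO and 75.1, 78.5 and 76.7 CPM in WT (1.50 ± 0.093). Both were higher in every KO library. Rgs5, a G-protein regulator of mural cells, was at 2.15, 1.58 and 1.95 CPM in KO and 25.7, 31.9 and 24.4 CPM in WT (-3.85 ± 0.21). The Notch ligand Jag1 was at 151, 181 and 216 CPM in KO and 613, 643 and 601 CPM in WT (-1.76 ± 0.11), and the Notch receptor and target genes Notch3 (-1.38 ± 0.17), Hey2 (-2.52 ± 0.22) and Hey1, with no count in KO and 0.936, 2.13 and 1.48 CPM in WT, were lower too. The related target Heyl, named after its value was seen, went the other way, at 1.03, 1.75 and 2.23 CPM in KO and 0, 0.0636 and 0.145 CPM in WT (4.50 ± 0.63). Hopx (-2.34 ± 0.18) and Smad3 (-0.87 ± 0.11) were lower and Foxo1 (1.08 ± 0.13) higher.

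Calcium handling and ion channel genes were lower in 19 and higher in 10 of 34 tested (median -0.55). The share called was 85.3%, against 60.6% of all genes. The L-type calcium channel Cacna1c, the main route of calcium entry in smooth muscle, was at 10.4, 10.7 and 14 CPM in KO and 87.4, 83.9 and 86.8 CPM in WT (-2.88 ± 0.13). Its auxiliary subunit Cacna2d1 was at 54.1, 53.9 and 58.1 CPM in KO and 240.1, 219.8 and 232 CPM in WT (-2.06 ± 0.073). The calcium pump Atp2b4 was at 7.13, 8.85 and 8.72 CPM in KO and 125, 122 and 121 CPM in WT (-3.89 ± 0.13). All KO libraries were below all WT libraries for these 3. The T-type channel Cacna1h (-6.71 ± 0.48), the potassium channel Kcnk3 (-4.87 ± 0.42), the inositol trisphosphate receptor Itpr1 (-1.69 ± 0.10), the store sensor Stim1 (-1.50 ± 0.074) and the chloride channel Ano1 (-1.20 ± 0.074) were lower, and the ATP-gated channel P2rx7 (7.68 ± 0.34) was higher, at 9.33, 9.42 and 12.7 CPM in KO against no more than 0.0723 in WT.

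Receptors and effectors for vasoactive signals included several genes near absence in WT. Of 30 tested, 11 were higher and 9 lower in KO (median 0.083), 66.7% called against 60.6% of all genes, and 16 changed by at least 2-fold (53.3% against 21.7%). An alpha and a beta subunit of soluble guanylate cyclase, the nitric oxide receptor, were higher. Gucy1a3 was at 75.2, 71.1 and 75.1 CPM in KO and 2.59, 3.12 and 2.53 CPM in WT (4.74 ± 0.17). Gucy1b3 was at 70.6, 63.9 and 65.4 CPM in KO and 5.90, 5.34 and 4.63 CPM in WT (3.65 ± 0.14). The oxytocin receptor Oxtr was at 66.2, 71 and 68.9 CPM in KO and 3.13, 2.93 and 2.67 CPM in WT (4.56 ± 0.19). With Calcrl, these 3 had the lowest p-values of the list. The adenosine receptor Adora2b (2.07 ± 0.19), the natriuretic peptide receptor Npr2 (0.61 ± 0.073) and the natriuretic peptide Nppc (6.09 ± 0.66) were higher. The parathyroid hormone receptor Pth1r (-3.51 ± 0.17) and the alpha-1B adrenergic receptor Adra1b (-0.99 ± 0.13) were lower.

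In coagulation and fibrinolysis, 12 of 24 tested genes were lower and 5 higher in KO (median -0.53), 70.8% called against 60.6% of all genes. Besides Thbd, the thrombin receptor F2r was at 91.7, 110.0 and 115 CPM in KO and 340.4, 332 and 347 CPM in WT (-1.68 ± 0.091). Tissue factor pathway inhibitor (Tfpi) was at 6.46, 5.22 and 5.26 CPM in KO and 21, 21.7 and 23.2 CPM in WT (-1.96 ± 0.15). Protein S (Pros1, -0.61 ± 0.093) and its relative Gas6 (-0.90 ± 0.085) were lower too. Serpine2, protease nexin-1, a thrombin inhibitor of the cell surface, was the exception in size, at 234, 219.5 and 201 CPM in KO and 10.5, 11 and 9.25 CPM in WT (4.41 ± 0.12). Annexin A2 (Anxa2, 0.81 ± 0.076) and tissue plasminogen activator (Plat, 0.42 ± 0.065) were higher by less than 2-fold. No library of one line overlapped the other for F2r, Tfpi or Serpine2. Prostanoid genes were lower in 11 and higher in 3 of 19 tested (median -0.32), 73.7% called against 60.6% of all genes. When scaled by library size alone, 1 in place of 3 was higher. The inducible cyclooxygenase Ptgs2 was at 5.89, 4.34 and 5.02 CPM in KO and 32.3, 31.1 and 35.6 CPM in WT (-2.70 ± 0.12), prostacyclin synthase (Ptgis) at 338, 309.8 and 259 CPM in KO and 495, 472 and 503 CPM in WT (-0.70 ± 0.10), and the prostaglandin E receptor Ptger3 was higher (5.93 ± 0.88), at under 2 CPM.

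**Figure D3:**
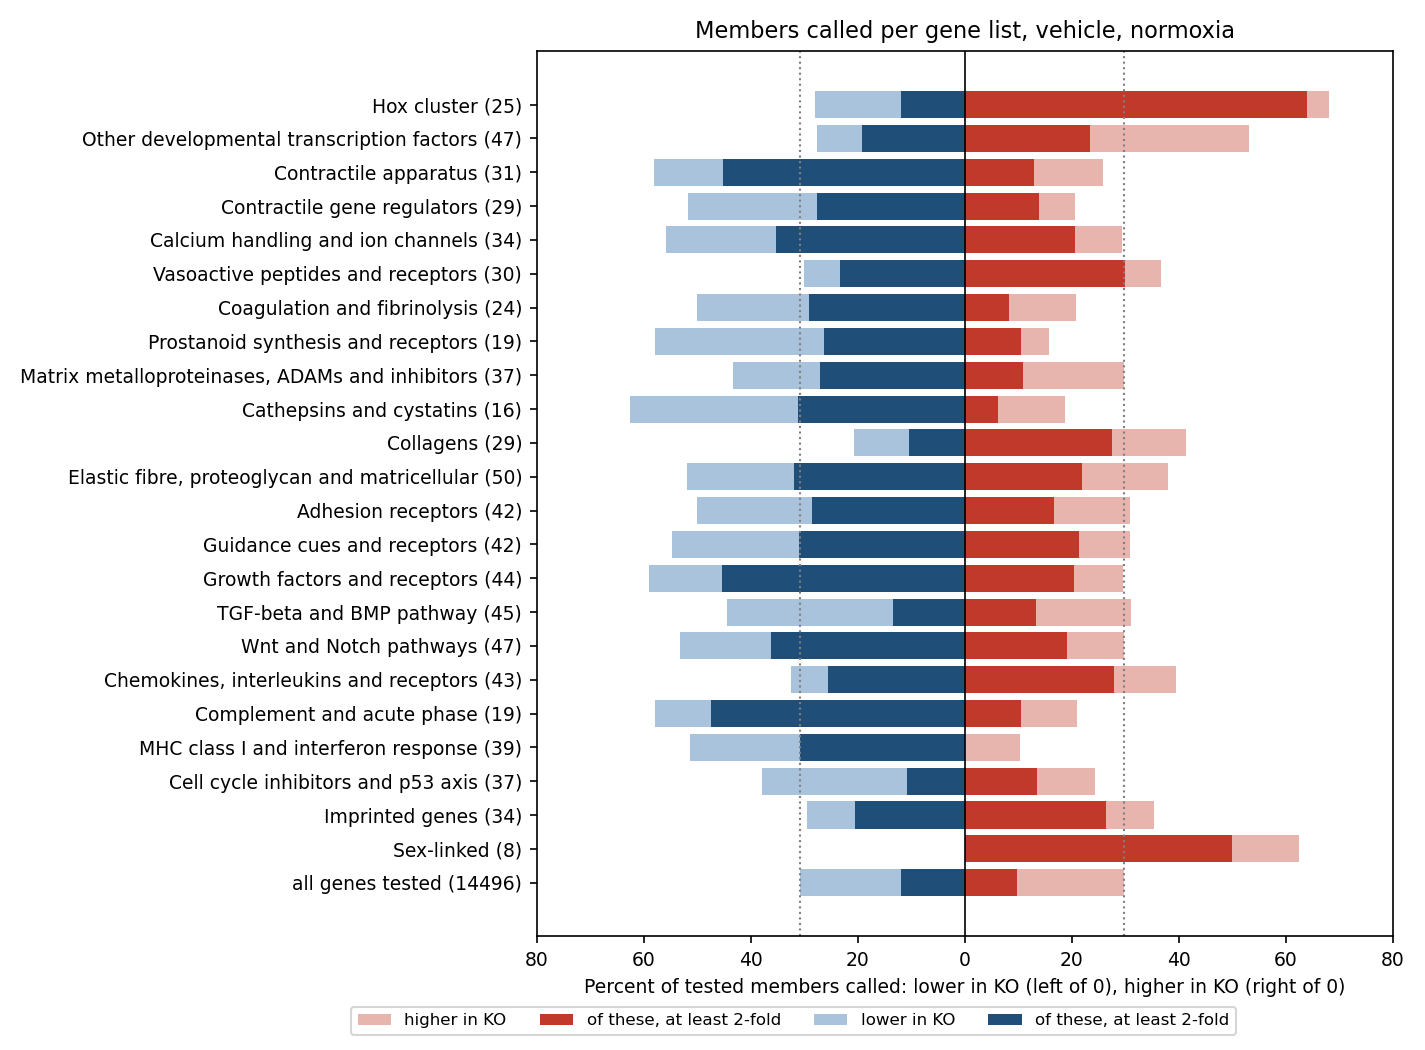
Percent of tested members called higher (right of 0) or lower (left of 0) in KO for 23 gene lists and, in the last row, all 14496 genes tested; dark bars are changes of at least 2-fold, dotted lines are the shares of all genes, and numbers in brackets are members tested. The Hox list has the highest share higher in KO, 17 of 25, and the cathepsin list the highest share lower, 10 of 16.

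Matrix protease genes differed in both directions. Of 37 tested metalloproteinases, ADAM proteases and their inhibitors, 16 were lower and 11 higher in KO (median -0.26), 73% called against 60.6% of all genes, and 10 and 4 changed by at least 2-fold (37.8% against 21.7%). Mmp23, a short membrane-linked metalloproteinase, had the largest rise of the list, at 119, 107 and 97.9 CPM in KO and 1.12, 1.05 and 1.30 CPM in WT (6.54 ± 0.18). Adamts5, an aggrecan-cleaving protease, was at 39.5, 40.1 and 45.3 CPM in KO and 304, 301 and 305 CPM in WT (-2.86 ± 0.10). Its relative Adamts1 was at 144, 168 and 181 CPM in KO and 393, 403 and 396 CPM in WT (-1.27 ± 0.10), and Mmp19 at 11.6, 12 and 14.4 CPM in KO and 46.7, 48.6 and 45.6 CPM in WT (-1.89 ± 0.12). Of 16 cathepsin and cystatin genes tested, 10 were lower and 3 higher (median -0.68), 81.2% called against 60.6% of all genes. Ctsk, cathepsin K, which degrades collagen and elastin, was at 0.513, 0.438 and 0.319 CPM in KO and 89.9, 84.2 and 89.7 CPM in WT (-7.71 ± 0.19, FDR 2.74e-23). Ctsc (-2.47 ± 0.17), Ctsf (-1.38 ± 0.10), legumain (Lgmn, -1.57 ± 0.079) and the secreted inhibitor Cst3 (-1.26 ± 0.13) were lower by at least 2-fold, Ctsd (-0.85 ± 0.078) and Ctsz (-0.89 ± 0.069) by less, and Ctsb (0.54 ± 0.075) was higher.

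Collagen genes were higher in 12 and lower in 6 of 29 tested (median 0.012), 62.1% called against 60.6% of all genes, and were higher in 10 and lower in 10 when scaled by library size alone. After Col3a1, several collagen VI chains rose. Col6a3 was at 909, 1155 and 1356 CPM in KO and 278, 275 and 258 CPM in WT (2.08 ± 0.11). Col6a2 (1.19 ± 0.092), Col6a1 (0.76 ± 0.088), Col6a6 (5.36 ± 0.45) and Col6a5 (7.52 ± 0.47) were higher as well. The basement membrane chains Col4a3 (2.34 ± 0.18) and Col4a4 (3.38 ± 0.22), which lie side by side in the genome, rose together, and Col8a1 (1.78 ± 0.10) was higher. Col27a1 was at 5.38, 6.57 and 8.20 CPM in KO and 48.9, 57 and 59.1 CPM in WT (-3.02 ± 0.24), and Col23a1 was lower too (-2.90 ± 0.20). The main chains of collagen I did not pass. Col1a1, named after its value was seen, was at 749, 1087 and 1370.1 CPM in KO and 1186, 1132 and 1291 CPM in WT (FDR 0.462), and Col1a2, likewise, at 4696, 6354 and 6361 CPM in KO and 6332, 6141 and 5868 CPM in WT (FDR 0.561), with overlapping libraries.

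Elastic fibre, proteoglycan and matricellular genes passed in 45 of 50 cases (90%, against 60.6% of all genes). The list had 26 genes lower and 19 higher in KO (median -0.42). Eln, elastin, was at 2.46, 2.89 and 4.06 CPM in KO and 86.6, 91.1 and 84.1 CPM in WT (-4.78 ± 0.22, FDR 6.54e-16). The cross-linking enzyme Lox was at 398, 460.2 and 471 CPM in KO and 1309, 1338 and 1277 CPM in WT (-1.56 ± 0.10), while its relative Loxl2 was at 626, 689 and 733 CPM in KO and 176, 182 and 182 CPM in WT (1.92 ± 0.10). The microfibril gene Fbn1 was at 3571, 4011 and 4379.6 CPM in KO and 1545, 1322 and 1367 CPM in WT (1.50 ± 0.11). Elastin and its cross-linker were thus lower while the fibrillin scaffold gene was higher. The thrombospondins split as well. Thbs2 was at 1845, 1869 and 1912 CPM in KO and 55.1, 54.8 and 51.9 CPM in WT (5.12 ± 0.14), Thbs1 at 690.3, 908 and 1062 CPM in KO and 3578, 3470.5 and 3392 CPM in WT (-1.97 ± 0.16), and Thbs3 was lower (-1.71 ± 0.11). Among the CCN proteins, Ctgf (-2.08 ± 0.11) and Wisp1 (-2.60 ± 0.11) were lower and Wisp2 (1.94 ± 0.12) higher. Fibronectin (Fn1) was at 2731, 3569 and 4464 CPM in KO and 1787, 1597 and 1578 CPM in WT (1.12 ± 0.13), asporin (Aspn) was higher (1.73 ± 0.10) and biglycan (Bgn) lower (-1.03 ± 0.14). The KO and WT libraries did not overlap for any gene named in this account of elastic fibres, nor for 65.8% of all tested genes.

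Receptors that hold cells to matrix and to each other were lower in 21 and higher in 13 of 42 cases (median -0.45). Of these receptors 81% were called, against 60.6% of all genes. The collagen-binding integrin subunits Itga1 and Itga11 fell. Itga1 was at 1.85, 1.93 and 1.95 CPM in KO and 37, 36.9 and 34.7 CPM in WT (-4.24 ± 0.17), and Itga11 at 5.38, 7.45 and 8.68 CPM in KO and 94.5, 94.3 and 97 CPM in WT (-3.72 ± 0.15). The laminin-binding subunit Itga6 was at 46.9, 49 and 55 CPM in KO and 8.93, 8.36 and 8.46 CPM in WT (2.55 ± 0.10). Itgb8 (-3.31 ± 0.18) and Itgb5 (-1.30 ± 0.075), the cadherin Cdh3 (-5.14 ± 0.29), the glypican Gpc6 (-2.27 ± 0.083), the leukocyte ligand Vcam1 (-2.06 ± 0.075) and Pcdh7 (-1.48 ± 0.085) were lower, and the protocadherin Pcdh19 (2.21 ± 0.10) was higher.

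Axon guidance genes, which also steer migrating vascular cells, passed in 36 of 42 cases (85.7%, against 60.6% of all genes). The list had 23 genes lower and 13 higher (median -0.37). A ligand and 2 receptors of the Slit and Robo pathway were close to absent from KO. Slit3 was at 0.923, 1.75 and 1.87 CPM in KO and 72, 78.9 and 72.9 CPM in WT (-5.59 ± 0.20). Robo1 was at 1.18, 2.19 and 1.91 CPM in KO and 34.6, 39.6 and 39.2 CPM in WT (-4.40 ± 0.17), and Robo2 at 0.205, 0.0877 and 0.0796 CPM in KO and 18.3, 18.8 and 17.1 CPM in WT (-7.18 ± 0.33). Among semaphorins and their receptors the direction was mixed. Sema3c was at 207, 190.5 and 187 CPM in KO and 1036, 991 and 1038 CPM in WT (-2.39 ± 0.076), Sema3d at 169.6, 197 and 193 CPM in KO and 20.1, 16.5 and 17.5 CPM in WT (3.37 ± 0.13), and the co-receptor Nrp2 at 475, 511 and 590.1 CPM in KO and 45.9, 44.6 and 47 CPM in WT (3.52 ± 0.14). The netrin receptor Unc5c (5.54 ± 0.20), Sema5a (2.04 ± 0.11), Sema3b (1.75 ± 0.13) and the ephrin receptor Epha4 (1.43 ± 0.082) were higher.

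Growth factor genes changed by at least 2-fold in 29 of 44 cases (65.9%, against 21.7% of all genes), 20 lower and 9 higher. The epidermal growth factor receptor Egfr was at 174, 201 and 226 CPM in KO and 862, 895 and 929 CPM in WT (-2.16 ± 0.088). The growth hormone receptor Ghr was at 753, 731 and 719.8 CPM in KO and 119, 124 and 120.5 CPM in WT (2.60 ± 0.067). Pdgfd, a ligand of the PDGF beta receptor, was at 34.1, 34.4 and 32.6 CPM in KO and 2.30, 2.54 and 2.35 CPM in WT (3.81 ± 0.17). Ligands of the FGF family split, with Fgf7 higher (5.16 ± 0.23) and Fgf18 lower (-4.09 ± 0.16), and the receptor Fgfr2 was lower (-2.29 ± 0.14). The neurotrophin receptor Ntrk3 (-4.04 ± 0.16) and the lymphatic growth factor Figf (-1.30 ± 0.073) were lower. The insulin-like growth factor binding genes went apart, with Igfbp3 at 2.28 ± 0.092 and Igfbp2 at -2.82 ± 0.15.

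In the TGF-beta and BMP pathway 20 of 45 genes were lower and 14 higher, 6 and 6 by at least 2-fold (26.7% against 21.7% of all genes). Both TGF-beta receptors rose, Tgfbr1 to 128, 119.8 and 125 CPM in KO from 54.4, 57 and 55.4 CPM in WT (1.16 ± 0.079) and Tgfbr2 by 0.76 ± 0.078, and the ligand Tgfb2 was lower (-0.93 ± 0.086). The lower BMP genes included receptors and antagonists, with Bmpr1b at -4.16 ± 0.20, Bmpr1a at -0.76 ± 0.063, gremlin (Grem1) at -2.70 ± 0.14 and Bmper at -2.37 ± 0.15. Wnt and Notch pathway genes were lower in 25 and higher in 14 of 47 cases (median -0.36), 83% called against 60.6% of all genes. The Wnt receptor Fzd8 was at 34.4, 36.8 and 38.8 CPM in KO and 304, 331 and 339 CPM in WT (-3.15 ± 0.10), and Fzd6 (-2.33 ± 0.083), Fzd3 (-1.32 ± 0.081) and Fzd7 (-0.95 ± 0.079) were lower with it. The ligand Wnt5a (-2.08 ± 0.11), the secreted Dkk3 (-2.86 ± 0.15) and the Notch target Hes1 (-2.17 ± 0.10) were lower, and the Wnt antagonist Sfrp4 (5.02 ± 0.30) was higher.

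Inflammatory genes were not uniform in direction. Chemokines, interleukins and their receptors were higher in 17 and lower in 14 of 43 cases (72.1% called, against 60.6% of all genes). When scaled by library size alone, 15 were higher and 15 lower. Cxcl12, which retains stem and immune cells through CXCR4, was at 708, 748 and 822 CPM in KO and 2442, 2528 and 2347 CPM in WT (-1.68 ± 0.08). The monocyte chemokine Ccl7 was at 1.54, 1.23 and 1.55 CPM in KO and 31.5, 31.6 and 31.9 CPM in WT (-4.46 ± 0.21), and the macrophage growth factor Csf1 at 31.3, 39.4 and 44.4 CPM in KO and 202, 208 and 207 CPM in WT (-2.42 ± 0.14). The interleukin 4 receptor Il4ra was at 390.4, 387 and 384 CPM in KO and 97.8, 89.2 and 93.1 CPM in WT (2.05 ± 0.11), and Il15 was higher too (3.55 ± 0.16). Of 2 feedback inhibitors of NF-kB, Nfkbia (1.69 ± 0.086) was higher and Tnfaip3 (-1.71 ± 0.10) lower. Complement and acute phase genes were lower in 11 and higher in 4 of 19 cases (median -1.11), 78.9% called against 60.6% of all genes. The lower genes included components and regulators, with C3 at -2.19 ± 0.15, C1s at -1.61 ± 0.066, C1ra at -1.79 ± 0.10, Cfb at -1.54 ± 0.18 and Cd55 at -1.80 ± 0.081. Ceruloplasmin (Cp) was at 38.6, 36.9 and 38 CPM in KO and 342, 350.0 and 346 CPM in WT (-3.19 ± 0.09).

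MHC class I and interferon response genes were lower in 20 and higher in 4 of 39 cases (median -0.68). The share called, 61.5%, was near the 60.6% of all genes, and all 12 changes of at least 2-fold were falls. The class I heavy chains H2-K1 and H2-D1 were at 8.77, 6.71 and 5.77 and at 13.7, 12.6 and 12.3 CPM in KO, against 43.3, 38.6 and 40.2 and 41.4, 39.9 and 42.4 CPM in WT (-2.53 ± 0.11 and -1.68 ± 0.09). The peptide loading gene Tapbp (-0.96 ± 0.084), the immunoproteasome subunit Psmb8 (-2.91 ± 0.31), the sensor Ifih1 (-1.56 ± 0.17) and the response genes Ifit2 (-1.31 ± 0.11), Gbp2 (-1.20 ± 0.14) and Irf1 (-0.90 ± 0.086) were lower. H2 genes are a family of close relatives, so reads shared between them make single values uncertain.

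Cell cycle inhibitors and the p53 axis passed in 23 of 37 cases (62.2%), close to the share of all genes, with 9 higher and 14 lower. The inhibitors Cdkn1b (p27) and Cdkn1a (p21) were higher and the cyclin Ccnd2 was lower. Cdkn1b was at 251, 249 and 242 CPM in KO and 106, 111 and 103 CPM in WT (1.22 ± 0.07), and Cdkn1a changed by 0.91 ± 0.10. Ccnd2 was at 229.5, 279 and 300.4 CPM in KO and 1055, 968 and 912 CPM in WT (-1.86 ± 0.11). The Cdkn2a locus, which encodes p16 and Arf, was at 3.08, 6.22 and 5.46 CPM in KO and 15.4, 17 and 14.3 CPM in WT (-1.65 ± 0.21), and Ccnd1 (-0.81 ± 0.10), Mdm2 (-0.71 ± 0.066) and Pmaip1 (-1.52 ± 0.11) were lower. Imprinted genes, expressed from 1 parental allele, were higher in 12 and lower in 10 of 34 cases (64.7% called, against 60.6% of all genes), or 10 and 12 when scaled by library size alone. Peg3 (3.15 ± 0.18), Ndn (1.43 ± 0.088), Rian (4.10 ± 0.37), Meg3 (3.25 ± 0.51) and Igf2 (2.10 ± 0.25) were higher, and Ppp1r9a was at 1.13, 1.05 and 0.876 CPM in KO and 67.3, 65.9 and 66.3 CPM in WT (-6.03 ± 0.18). Dio3, which shares a domain with Meg3 and Rian, moved against them, with no count in KO and 2.02, 2.16 and 1.66 CPM in WT.

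Of 15 tested adventitial fibroblast markers, another cell type of the aortic wall, 13 differed, 8 higher and 5 lower in KO (median 1.26), 10 by at least 2-fold. That is 86.7% called, against 60.6% of all genes. The list was written with results for several of its members already known. Dpt, dermatopontin, was at 324, 299.8 and 269 CPM in KO and 10.2, 10.9 and 8.24 CPM in WT (4.93 ± 0.17). The progenitor markers Pi16 (5.93 ± 0.13), Cd34 (6.32 ± 0.20), Clec3b (6.98 ± 0.23) and Ly6c1 (5.66 ± 0.21) were higher, while Pdgfra was at 88.9, 100.4 and 106 CPM in KO and 267, 276 and 254 CPM in WT (-1.43 ± 0.094) and Sfrp2 was lower (-1.14 ± 0.13). The summed level of the list was 4812 to 5553 CPM in KO and 6104 to 6216 CPM in WT, so the sum moved against the count. In bulk RNA more cells of a type and more RNA per cell cannot be told apart. Of the other marker lists, epithelial and mesothelial genes were higher in 4 and lower in 3 of 9 (77.8% called). All 7 changed by at least 2-fold (77.8%, against 21.7% of all genes). Msln, mesothelin, was at 65.3, 60.3 and 55.3 CPM in KO and 7.52, 7.63 and 6.43 CPM in WT (3.06 ± 0.12). Krt19 was at 98.5, 84.1 and 82.3 CPM in KO and 11.8, 10.6 and 11.9 CPM in WT (2.95 ± 0.12). Msln and Krt19 were picked by their p-values, the smallest of the list in edgeR's test, and do not stand for its direction. The 3 lower genes were among Cdh1, Krt18, Upk1b, Upk3b and Krt7, whose values are not given here. Lrrn4 and Krt8 did not pass. The epithelial and mesothelial list summed to 153 to 179 CPM in KO and 34.4 to 40.1 CPM in WT, and its members Epcam, Krt8 and Cldn4 had no count. Pericyte genes were higher in 3 and lower in 4 of 8 (87.5% called). Neural genes were higher in 5 and lower in 3 of 10 (80% called), with Gap43 (5.52 ± 0.46) and Tubb3 (2.14 ± 0.10) higher and Mbp (-1.72 ± 0.19) lower. Chondrocyte and osteoblast genes were higher in 3 and lower in 1 of 10 (40% called). The lower one was Col10a1, at 1.23, 1.80 and 1.59 CPM in KO and 65.2, 70.4 and 69.6 CPM in WT (-5.46 ± 0.18). The part of other cell types in any result was not tested.

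All 4 tested Y-linked genes were expressed in both lines and higher in KO. Eif2s3y was at 99.3, 92.9 and 83.9 CPM in KO and 9.36, 8.93 and 10.8 CPM in WT (3.25 ± 0.11), and Ddx3y at 132, 118 and 109 CPM in KO and 14.7, 16.4 and 16.2 CPM in WT (2.92 ± 0.11). Uty (3.03 ± 0.13) and Kdm5d (3.01 ± 0.13) changed by about as much. Their X-linked homologues did not follow: Kdm6a was higher by 0.25 ± 0.077, and Eif2s3x (FDR 0.197), Ddx3x (FDR 0.0561) and Kdm5c (FDR 0.651) did not pass. With scaling by library size alone Kdm6a did not pass (0.11 ± 0.10, FDR 0.369). Ddx3x was lower with that scaling (-0.29 ± 0.11, FDR 0.0185), with a filter of at least 5 CPM in 3 libraries (-0.17 ± 0.066, FDR 0.0296) and with DESeq2 (-0.14 ± 0.062, FDR 0.037). Xist, the RNA of the inactive X, had 5, 4 and 4 counts in KO and 8, 4 and 6 in WT, too few to be tested. Y-linked genes were also higher in KO under POVPC in normoxia, vehicle in hypoxia and POVPC in hypoxia, with Eif2s3y at 3.56 ± 0.12, 3.32 ± 0.12 and 2.74 ± 0.12.

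The differences were not spread evenly over the chromosomes. Over the 19 autosomes the median change ran from -0.44 on chromosome 11 to 0.50 on chromosome 4. On chromosome 4, 501 genes were higher and 116 lower (70.8% called), and on chromosome 11, 136 were higher and 734 lower (71.2%). Over all tested genes 29.8% were higher and 30.8% lower. Chromosomes 8 (0.35) and 12 (0.31) were shifted up, chromosome 10 down (-0.42), and chromosomes 3, 9, 13 and 14 lay near 0. Library by library, with genes of at least 5 CPM, chromosome 4 stood at 0.272, 0.295 and 0.290 relative to the mean of the 6 libraries in KO and at -0.279, -0.281 and -0.284 in WT. Chromosome 11 stood at -0.238, -0.212 and -0.211 in KO and 0.222, 0.225 and 0.212 in WT. KO and WT libraries did not overlap on 16 of the 19 autosomes. With genes in runs of 50 along a chromosome, all 17 runs of chromosome 4, all 15 of chromosome 8 and all 10 of chromosome 12 had a median above 0, and all 24 of chromosome 11 (-0.673 to -0.205), all 14 of chromosome 10 and all 17 of chromosome 5 were below 0. The other autosomes had runs of both signs. Within chromosome 4 the runs differed in size, at 0.859 to 1.09 in the first 5 (to mm9 position 63211735) and 0.137 to 0.643 in the other 12. Chromosome 7, with a median of 0.077, was split: its first 10 runs (chr7:3289039-67123742, mm9) were all above 0, at 0.224 to 0.625, and the other 11 (chr7:68850736-150280547) all below 0, at -0.412 to -0.173. The runs of chromosome 7 had the same signs in the other 3 culture conditions. Scaling by library size alone moved all of these medians down by about the same amount, with chromosome 4 at 0.36, chromosome 12 at 0.17, chromosome 10 at -0.56 and chromosome 11 at -0.58. The medians were much the same in the other culture conditions, from 0.50 to 0.61 on chromosome 4 and from -0.46 to -0.37 on chromosome 11. In lesions, where KO and WT animals of the same strain were compared, the autosome medians ran only from -0.024 to 0.062. DNA was not measured, so what lies behind the chromosome medians was not tested.

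**Figure D4:**
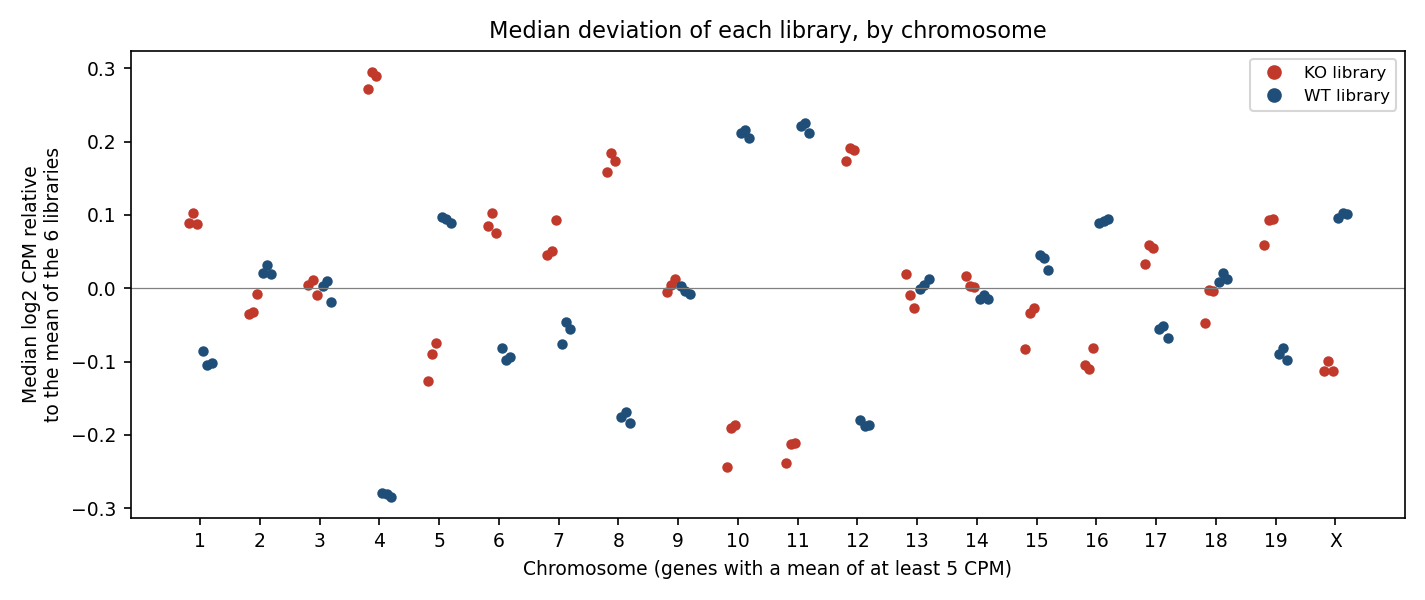
For each library, the median over genes of a chromosome (x axis; genes averaging 5 CPM or more; Y not drawn) of log2 CPM minus the mean of the 6 libraries (y axis). KO libraries lie above WT libraries most widely on chromosome 4 and below them on chromosomes 10 and 11, while on chromosomes 3, 9 and 13 they overlap.

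Around Pou5f1 itself, the 20 tested genes on each side (chr17:35118799-36106695, mm9) did not stand out. Of these 40, 14 were higher and 7 lower (52.5% against 60.6% of all genes), with a median change of 0.022. The 7 that changed by at least 2-fold were H2-D1 and the class I gene H2-Q4 (-4.07 ± 0.52), the collagen receptor gene Ddr1 (-1.29 ± 0.12), corneodesmosin (Cdsn, -1.31 ± 0.21) and the proton pump subunit Atp6v1g2 (-1.24 ± 0.37), all lower, and Ddah2 (1.07 ± 0.085), which breaks down an inhibitor of nitric oxide synthases, and Gm8801 (2.23 ± 0.27), both higher. Ddr1, Cdsn, Atp6v1g2, Ddah2 and Gm8801 were named after their values were seen.

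Most genes that differed by at least 2-fold at baseline were called the same way in each other condition, and in hypoxia less than 50% of them by at least 2-fold. Of the 1411 genes at least 2-fold higher at baseline, 82.9% were higher in KO with POVPC in normoxia, 61.02% with vehicle in hypoxia and 60.03% with POVPC in hypoxia. Over all tested genes, 29.5, 29.5 and 30% were higher in these conditions. For the 1732 lower genes the shares were 80.4, 62.8 and 61.1%, against 30.7, 30.4 and 27.6% of all genes. Changes of at least 2-fold in the same direction were seen in 69.6, 45.1 and 42.2% of the higher genes and in 63.7, 47.1 and 43.8% of the lower genes, in the same order of conditions. Calls in the opposite direction numbered 48 and 21 with POVPC in normoxia, 147 and 68 with vehicle in hypoxia and 110 and 83 with POVPC in hypoxia. In all 4 conditions, 4020 genes were called the same way, and 1031 by at least 2-fold, where 20.9, 20.7 and 18.8% of all genes passed by at least 2-fold in the other 3 conditions. The 4 conditions share no libraries, but they share the 2 lines. Tested as an interaction, the KO to WT difference was not the same as at baseline in 2344 genes with POVPC in normoxia (16.2%), 5670 with vehicle in hypoxia (39.1%) and 5495 with POVPC in hypoxia (37.9%).

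The marker genes kept their direction. Nkx2-3 was at 42 ± 2.58 CPM in KO and 0 in all 3 libraries in WT with POVPC in normoxia (SD, n = 3), 19.1 ± 0.991 and 0.0366 ± 0.0634 with vehicle in hypoxia, and 15.5 ± 2.06 and 0 in all 3 libraries with POVPC in hypoxia. In the same order, Calcrl changed by 9.72 ± 0.23, 6.51 ± 0.20 and 6.11 ± 0.22, Thbd by -7.96 ± 0.14, -11.32 ± 0.18 and -10.25 ± 0.16, and Mmp3 by -8.68 ± 0.23, -6.76 ± 0.22 and -7.65 ± 0.23. Thbs2, Slit3, Mylk and Gucy1a3 also kept theirs. Hox genes were higher in 17, 17 and 15 of 25 cases and lower in 5, 1 and 3, in the same order, against 17 and 7 at baseline. Contractile genes did not keep their balance, with 10, 8 and 12 of 31 higher and 11, 11 and 7 lower, against 8 and 18 at baseline. The median change of the contractile list was 0.037, -0.145 and 0.328, against -0.80 at baseline. Other genes did not pass or had the opposite sign in another condition. The surface marker Ly6a was at 296, 273 and 257 CPM in KO and 9.76, 8.87 and 9.03 CPM in WT at baseline (4.90 ± 0.13), and at 53.5 ± 3.85 (SD, n = 3) against 56 ± 3.87 CPM with vehicle in hypoxia, where it did not pass (-0.06 ± 0.11). Igfbp3 was at 668, 661 and 636 CPM in KO and 145, 136 and 122 CPM in WT at baseline, and at 148 ± 11 against 718 ± 46.8 CPM with vehicle in hypoxia, so that 2.28 ± 0.092 became -2.28 ± 0.092. Elastin (Eln) was lower in KO with POVPC in normoxia (-2.91 ± 0.21) and in hypoxia (-5.95 ± 0.84). It did not pass with vehicle in hypoxia, where the estimate was imprecise (0.75 ± 1.17). Acta2, lower in KO at baseline, did not pass with POVPC in normoxia (-0.35 ± 0.19) or vehicle in hypoxia (0.30 ± 0.19), and was higher with POVPC in hypoxia (0.51 ± 0.21, FDR 0.042). For Eln and Acta2, not passing in a condition is no test of a difference from baseline, and their interaction values are not given here. These values use different libraries of the same lines, and the 4 conditions were tested in 1 model.

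**Figure D5:**
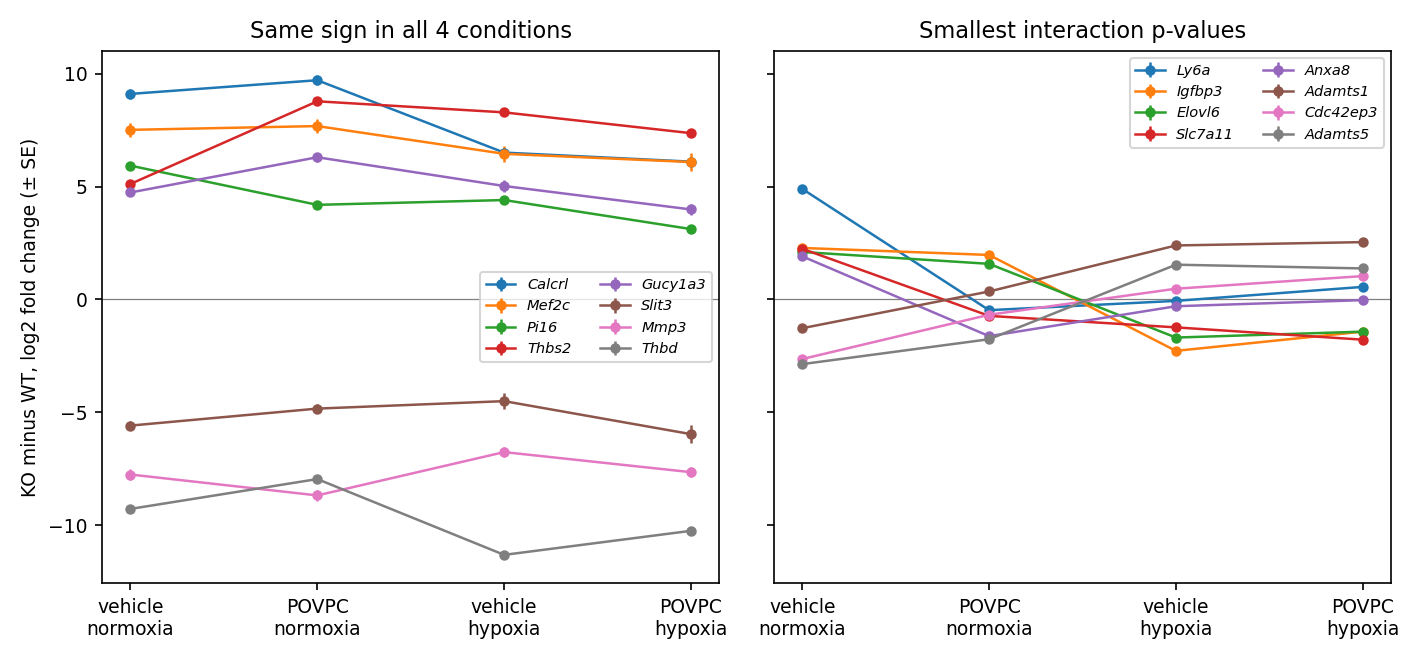
KO minus WT log2 fold change (y axis, bars are standard errors, mostly smaller than the points) in the 4 culture conditions (x axis) for 8 genes with the same sign in all 4, chosen after their values were seen (left), and 8 of the 11 genes with the smallest interaction p-values (right). On the left Thbd runs from -7.96 to -11.3, and on the right Adamts5 goes from -2.86 at baseline to 1.54 with vehicle in hypoxia.

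The lines' differences were set beside those between KO and WT lesions, where edgeR called 0 of 14993 genes (0%, with 2216 at an unadjusted p under 0.05). Lesions are tissue from animals on a Western diet and the lines are cultured cells, so their levels and directions are unlike measures. They are set side by side only as a description, and which lesion cells hold the RNA was not tested. Of the genes at least 2-fold lower in the KO line, 1549 were measured in lesions, and 1021 were lower and 528 higher in KO lesions (median -0.14). Of those at least 2-fold higher, 1219 were measured, 598 higher and 621 lower (median -0.0040). Over all lesion genes, 7301 were higher and 7692 lower. Mmp3, at -7.76 ± 0.22 in the line, was at 328, 409, 349.9 and 493 CPM in KO lesions and 170.0, 188, 209 and 114.0 CPM in WT lesions, all KO animals above all WT animals, a value of 1.21 ± 0.20 that did not pass edgeR's test (FDR 0.161). Nkx2-3, absent from the WT line, was at 0.755 to 1.66 CPM in KO lesions and 0.527 to 1.27 CPM in WT lesions. Thbd was at 141 to 164 CPM in KO lesions and 129 to 158 CPM in WT lesions, with overlap. Calcrl, higher in the KO line, was at 105, 81.0, 109 and 111 CPM in KO lesions and 64.3, 77.2, 83.1 and 67.2 CPM in WT lesions, where 1 KO animal lay below 1 WT animal, a value of 0.47 ± 0.12 that did not pass edgeR's test (FDR 0.172).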

How the data were processed

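Per the submitters' processing notes, reads were processed with CASAVA, STAR, featureCounts (Subread) and DESeq2 on mouse build mm9. Per the file headers, the authors counted reads per gene name with featureCounts 1.4.4 without strand, and in the culture table the 2 mates of a pair were counted separately. The deposited values are raw counts for 23284 genes. Antisense and overlapping genes cannot be told apart in them. Counts from the 24 culture libraries were fitted in 1 model with 8 groups in edgeR 4.0.16 (R 4.3.3): filterByExpr (minimum count 10, total 15; 14496 genes), TMM scaling, the robust quasi-likelihood test and Benjamini-Hochberg adjustment over all tested genes, with an FDR threshold of 0.05. Genotype effects in other conditions and interactions came from the same model, and lesions from a separate one. The fit was run on simulated data in which few genes changed, as many up as down. That run does not check the scaling or the rate of false calls where most genes differ. Alternatives included DESeq2 1.42.0, other scalings and filters, and leaving out each library. A fold against a group without counts is a bound from 3 counts over that group. Promoter sequences are from RefSeq (GRCm38.p6), and gene positions are mm9, from the count table.

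The members and gene lists were chosen with earlier results of these data known. Genes named are the 4 markers, the 25 largest rises and 25 largest falls with at least 5 CPM and no overlap, the 15 most abundant 2-fold genes, up to 10 members per list by p (every tested Hox, transcription factor and sex-linked gene) and 5 per interaction. Some genes that this rule names are not reported here. Others are said to be chosen later. Replicate numbers were not used to pair libraries. Depth was 19754346 to 28346752 counts per library, and intervals were not computed, since replicates give the spread.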

Additional observations from a re-analysis of the deposited data

Results flagged for a closer look

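In 11 genes, each among those at least 2-fold different at baseline, the KO to WT difference in another culture condition departed from that at baseline with the smallest p-values of edgeR's quasi-likelihood interaction test (Benjamini-Hochberg FDR, 5 genes for each condition). The values below are that departure in log2 units, and levels are mean CPM ± SD over 3 libraries. The cause of the departures was not tested.

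With vehicle in hypoxia the departure was -4.56 ± 0.13 for Igfbp3 (FDR 1.16e-20), an insulin-like growth factor binder, which was higher in KO at baseline and lower here. It was 4.41 ± 0.14 for Adamts5 (FDR 9.54e-20), at 41.6 ± 3.16 in KO and 303 ± 2.06 in WT at baseline and at 85 ± 8.68 and 29.3 ± 1.04 here. The fatty acid elongase Elovl6 departed by -3.79 ± 0.14 (FDR 2.49e-18), and the fatty acid receptor gene O3far1 by -5.28 ± 0.20 (FDR 5.02e-18). The departure of Ly6a was -4.96 ± 0.17 (FDR 5.02e-18), and its difference in hypoxia did not pass.

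With POVPC in normoxia Ly6a departed by -5.37 ± 0.17 (FDR 2.35e-18), to 288 ± 17.1 in KO and 400.4 ± 12.8 in WT from 275 ± 19.6 and 9.22 ± 0.471 at baseline. The annexin Anxa8 departed by -3.54 ± 0.11 (FDR 3.94e-19). The acute phase serpin Serpina3n departed by -4.54 ± 0.17 (FDR 5.93e-17), to 8.90 ± 1.24 in KO and 683 ± 97 in WT from 11.6 ± 0.787 and 38.3 ± 2.52. The pancreatic polypeptide receptor gene Ppyr1 departed by -4.06 ± 0.18 (FDR 3.00e-16) and the cystine transporter Slc7a11 by -2.97 ± 0.14 (FDR 1.47e-15).

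With POVPC in hypoxia the departures were 4.24 ± 0.14 for Adamts5 (FDR 5.42e-19), 3.68 ± 0.12 for Cdc42ep3 (FDR 5.42e-19), -4.03 ± 0.14 for Slc7a11 (FDR 5.42e-19) and -3.71 ± 0.13 for Igfbp3 (FDR 5.71e-19). Adamts1 departed by 3.81 ± 0.14 (FDR 2.81e-18), to 436 ± 79.7 in KO and 74.7 ± 7.18 in WT from 164 ± 18.8 and 397 ± 5.17, so that it was lower in KO at baseline and higher here.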

How the results depend on the processing

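Over the alternatives tried, the number of genes called ran from 7523 to 8956 apart from a test against a 2-fold minimum (glmTreat), which called 1915, 902 higher and 1013 lower, by its construction. The number called by at least 2-fold was 1995 with a minimum of 5 CPM in 3 libraries, which leaves 11268 genes, and 1915 with glmTreat. DESeq2 called 8956. Leaving out each library in turn gave 8088 to 8534 calls, 3932 to 4187 higher and 4009 to 4392 lower, and 3008 to 3172 by at least 2-fold. With the replicate number as a block, 8731 genes were called, 4289 higher and 4442 lower, and 3122 by at least 2-fold, and the calls of Lars2 and Rn45s were lost. Same-numbered KO and WT libraries correlated at 0.0499, -0.14 and -0.316 in their deviations from the group mean. Each had a higher correlation with another number (0.273, 0.184 and 0.359). Such deviations cancel within a group, so a negative correlation forces a higher one with another number. These values therefore do not decide whether the libraries were paired.

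Of 283 named genes, 7 changed sign under at least 1 alternative, 6 of them not called and the other Lars2. Leaving out each library in turn gave -0.39 to 0.032 for Col1a1, -0.15 to 0.058 for Col1a2 and -0.43 to 0.63 for Rpph1, each turned by leaving out KO library 1. It gave -1.17 to 5.45 for Lars2 and -0.057 to 0.21 for Kdm5c, turned by KO library 3, and -0.074 to 0.026 for Hoxb2, turned by WT library 2. Hoxb2 was at 0.0098 without the low-count filter, and with scaling by library size alone Eif2s3x was at -0.00097 and Kdm5c at -0.078. The cause was not tested. Of 558 counts of list members, 546 stayed within 1.5 times. Prostanoid genes called higher were 1 in place of 3 with scaling by library size alone, and chondrocyte genes lower 2 in place of 1. Genes with few counts, such as those absent from a line, limit the precision of the largest folds.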

Other observations

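Among the largest differences between the lines were genes outside the lists of the report. Of the 25 largest rises, 2 besides the Hox genes and Nkx2-3 had no count in WT: Psca, a surface antigen of prostate and gut epithelium, at 12.5, 10.8 and 8.28 CPM in the KO libraries, and Sycp1, a protein of the meiotic synaptonemal complex, at 7.33, 9.25 and 8.24 CPM. The glutamate receptor Grm7 was at 47.5, 54.5 and 61.6 CPM in KO and 0, 0 and 0.145 CPM in WT (10.05 ± 0.39). The dynein chain Dync1i1 (8.50 ± 0.19), the phosphatase Ptpn5 (7.80 ± 0.26), neuritin (Nrn1, 6.69 ± 0.15) and the kinesin Kif5c (6.09 ± 0.34), each known from neurons, were higher. Pgm5, a phosphoglucomutase relative of muscle adhesion sites, was at 152, 166 and 183 CPM in KO and 0.792, 0.890 and 1.30 CPM in WT (7.39 ± 0.15), and Ebf1, a transcription factor of B cells and of fat and mural cells, at 18.2, 16.3 and 20.2 CPM in KO and 0.288, 0.127 and 0 CPM in WT (6.99 ± 0.49). Non-overlap of the KO and WT libraries was a condition of entry to the 25 largest rises, and 65.8% of all tested genes met it.

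Of the 25 largest falls, Klhl6 had no count in KO and 10.6, 7.47 and 8.35 CPM in WT. The membrane endopeptidase Mme was at 0, 0.0438 and 0 CPM in KO and 10.1, 12.4 and 11.7 CPM in WT (-9.14 ± 0.53). The chloride channel protein Clic5 was at 0.154, 0.351 and 0.478 CPM in KO and 171, 139.6 and 153 CPM in WT (-8.81 ± 0.26). The drug efflux pump Abcb1a (-6.59 ± 0.40), the GLP-1 receptor Glp1r (-6.57 ± 0.24), the carboxypeptidase Cpz (-6.04 ± 0.35), neuronal nitric oxide synthase (Nos1, -5.90 ± 0.48) and cardiotrophin 1 (Ctf1, -5.81 ± 0.34) were lower. Xlr, an X-linked lymphocyte-regulated gene with close relatives that can share its reads, was at 0, 0.0438 and 0 CPM in KO and 29.3, 29.3 and 30.2 CPM in WT. Entry to the largest falls rested on the same condition of no overlap.

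Among the 15 most abundant genes with a change of at least 2-fold were the actin monomer binder Tmsb4x, at 1455, 1316 and 906 CPM in KO and 2587, 2629 and 2694 CPM in WT (-1.11 ± 0.19), the caveolar protein Sdpr, at 685, 618 and 545 CPM in KO and 1892, 1935 and 1950.1 CPM in WT (-1.64 ± 0.088), and the giant cadherin Fat1, at 288, 379.9 and 453 CPM in KO and 1620.2, 1462 and 1559 CPM in WT (-2.05 ± 0.14). Their KO and WT libraries did not overlap, as was so for 65.8% of all tested genes.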
